A study of Mus musculus with 21 samples.

Results

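The genes described here are 53 mouse genes of mitosis and of the G2 phase that leads into it, followed through 21 RNA libraries of bone-marrow-derived macrophages. They were named from a list of cell division genes and taken from the table by name, with no cut on their values. All 53 were found among the 23250 genes of the deposited table, and all 53 passed the filter on low counts, which kept 13468 genes. The cells came from C57BL/6J mice, and the series design describes them as deficient in the mannose receptor, a deficiency that every group shares, controls included. Marrow of femurs and tibias was grown for 7 days with supernatant of a line that makes GM-CSF, a growth factor under which marrow precursors divide and become macrophage-like cells. The 7 groups of 3 libraries were untreated cells (0 h), cells given FcMR for 4, 12 or 24 h, and cells given the isotype control for the same times. FcMR joins the Fc region of human IgG1 to the extracellular region of the mannose receptor. The isotype control was added for the same times, while the untreated cells had no added protein. The age and number of the mice, the deleted allele and any pooling are not given in the sources used here. No label says whether libraries came from separate cultures or animals, so p-values measure the spread between these libraries, which may be technical.

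A cell enters mitosis when cyclins A and B switch on cyclin-dependent kinase 1 (CDK1). It condenses its chromosomes, attaches them through kinetochores to a spindle of microtubules, and parts its cytoplasm at the central spindle. A checkpoint holds back the anaphase-promoting complex until the kinetochores are attached, and that complex then marks the cyclins for destruction. Most genes of this machinery are transcribed from late S phase to mitosis. The DREAM complex silences them in resting cells, and MuvB with B-Myb and FoxM1 turns them on in dividing ones, acting at a promoter element called the cell cycle genes homology region, of which TTTGAA is the best known form. CCAAT boxes often lie upstream of it. In bulk RNA, fewer dividing cells and less of these RNAs per cell cannot be told apart.

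The promoters of 10 members are shown because 9 of them carry TTTGAA, the form of the element that many of the members share. The stretches run from 120 bases before the annotated start through the first 20 bases after it. Ccnb1 is included as the 1 of the 10 without TTTGAA, and Mki67 and Hmmr as members that hold it but were not lower in the comparison of FcMR with isotype at 24 h. They are RefSeq sequences of build GRCm38.p6, each written 5′ to 3′ on the strand of its gene. Capitals mark TTTGAA and CCAAT, or TTCAAA and ATTGG where the motif lies on the other strand.

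Ccnb2 (chr9:70421535-70421674, minus strand): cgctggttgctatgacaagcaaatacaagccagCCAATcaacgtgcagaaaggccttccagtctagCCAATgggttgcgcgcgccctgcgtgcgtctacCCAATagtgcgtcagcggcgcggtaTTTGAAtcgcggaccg
Cdk1 (chr10:69352893-69353032, minus strand): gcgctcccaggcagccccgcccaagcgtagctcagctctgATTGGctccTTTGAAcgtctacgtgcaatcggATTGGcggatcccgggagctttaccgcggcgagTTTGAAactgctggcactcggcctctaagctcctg
Top2a (chr11:99024170-99024309, minus strand): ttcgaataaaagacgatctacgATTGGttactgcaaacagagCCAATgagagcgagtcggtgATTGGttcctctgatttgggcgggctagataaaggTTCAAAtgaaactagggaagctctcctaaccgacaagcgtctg
Cdc20 (chr4:118437324-118437463, minus strand): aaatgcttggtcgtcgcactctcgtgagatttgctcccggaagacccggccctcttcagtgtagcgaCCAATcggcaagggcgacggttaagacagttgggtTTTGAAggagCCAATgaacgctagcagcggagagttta
Ube2c (chr2:164769809-164769948, plus strand): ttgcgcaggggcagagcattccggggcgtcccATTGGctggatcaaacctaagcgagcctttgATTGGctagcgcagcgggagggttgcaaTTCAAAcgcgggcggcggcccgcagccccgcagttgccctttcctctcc
Kif11 (chr19:37376262-37376401, plus strand): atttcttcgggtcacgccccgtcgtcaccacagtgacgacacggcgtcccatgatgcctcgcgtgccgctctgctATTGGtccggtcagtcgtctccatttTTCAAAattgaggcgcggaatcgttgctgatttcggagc
Kif23 (chr9:61946780-61946919, minus strand): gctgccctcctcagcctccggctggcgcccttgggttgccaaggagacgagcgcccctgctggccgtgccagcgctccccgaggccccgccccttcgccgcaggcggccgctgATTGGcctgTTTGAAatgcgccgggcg
Mki67 (chr7:135716360-135716499, minus strand): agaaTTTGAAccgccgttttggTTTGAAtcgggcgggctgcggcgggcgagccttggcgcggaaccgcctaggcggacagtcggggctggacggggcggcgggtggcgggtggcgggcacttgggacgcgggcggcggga
Hmmr (chr11:40733418-40733557, minus strand): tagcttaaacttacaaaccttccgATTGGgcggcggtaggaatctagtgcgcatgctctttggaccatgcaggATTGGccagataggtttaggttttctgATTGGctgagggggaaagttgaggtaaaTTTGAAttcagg
Ccnb1 (chr13:100786467-100786606, minus strand): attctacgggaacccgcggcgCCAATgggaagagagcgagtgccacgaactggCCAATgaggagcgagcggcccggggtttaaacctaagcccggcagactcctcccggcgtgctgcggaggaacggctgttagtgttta

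Positions count from 0 at the annotated start. In Ccnb2, TTTGAA begins at 4 and CCAAT at −87, −54 and −21. In Cdk1, Top2a, Cdc20, Ube2c and Kif11 the TTTGAA nearest the start lies between −29 and −15, with at least 1 CCAAT upstream of it. Mki67 has TTTGAA at −116 and −98 and no CCAAT in the stretch shown. Ccnb1 has CCAAT at −99 and −67 and no TTTGAA in its whole window.

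RefSeq entries were found for 44 of the 53 members, with 46 promoters of 250 bases before to 50 bases after the start. TTTGAA on either strand was in 35 of those 46 promoters (76.1%), belonging to 33 genes, and in 17.9% of all 32851 promoters of the same length. CCAAT on either strand was in 35 of the 46 and in 37.4% of all promoters. Both motifs were in 31 of the 46 and in 6.95% of all. A TTTGAA beginning between −50 and 20 was found for 20 members and in 3.92% of all promoters. A match is a description of letters and not a measured binding site. Ccna2, Aurkb, Kif20a, Tpx2, Spc24, Cdc25c, Smc4, Pbk and Dlgap5 had no entry.

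Library totals ran from 5532225 to 66729533 counts, with a median of 9556249, and levels are given as CPM, a gene's counts divided by those of its library on a common scale, after TMM scaling. Mrc1, which encodes the mannose receptor, lay between 0 and 0.589 CPM in all libraries. By their library numbers, FcMR 12 h replicate 1 and isotype 4 h replicate 3 stand in each other's place. The mean log2 CPM of the members, relative to untreated, was −1.86, −2.24 and −2.25 in FcMR 12 h replicates 1, 2 and 3 and −0.56, −0.26 and −1.07 in those of isotype 4 h. Counts of calls that these libraries move are given with and without them. Of the 53 members, 28 have a gene span, introns included, that overlaps another annotated gene, 22 of them on the opposite strand. Counting by strand is not stated, and whether any reads were shared with those genes was not tested.

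By their medians the members were lower than in untreated cells in both arms. They were lowest at 12 h, and at 24 h stood higher again with isotype, while with FcMR they stood near their 12 h level. Taken as the median over the 53 members, the level with isotype was 63.3% of the untreated mean at 4 h, falling to 27.3% at 12 h before reaching 48.0% at 24 h. With FcMR it was 49.3%, 18.8% and 20.9% at the same times. The members other than Mki67 summed to 624 to 940.3 CPM in the untreated libraries. With isotype that sum was 370.2 to 650.1 CPM at 4 h, 239 to 287 CPM at 12 h and 325 to 482 CPM at 24 h. With FcMR it was 369 to 521, 191 to 262 and 198 to 262 CPM. Mki67, which was called higher with FcMR at each time, changes these sums. With it included, the sum with isotype was 460 to 818, 271 to 329.9 and 353 to 529 CPM at 4, 12 and 24 h. With FcMR the sum that includes Mki67 was 564 to 730, 277 to 375 and 238 to 328 CPM. By either sum the libraries of the 2 arms overlapped at 4 and 12 h and were apart at 24 h. At 24 h, 34 members had an FcMR mean under 25% of their untreated mean, and 4 had such an isotype mean.

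**Figure D1:**
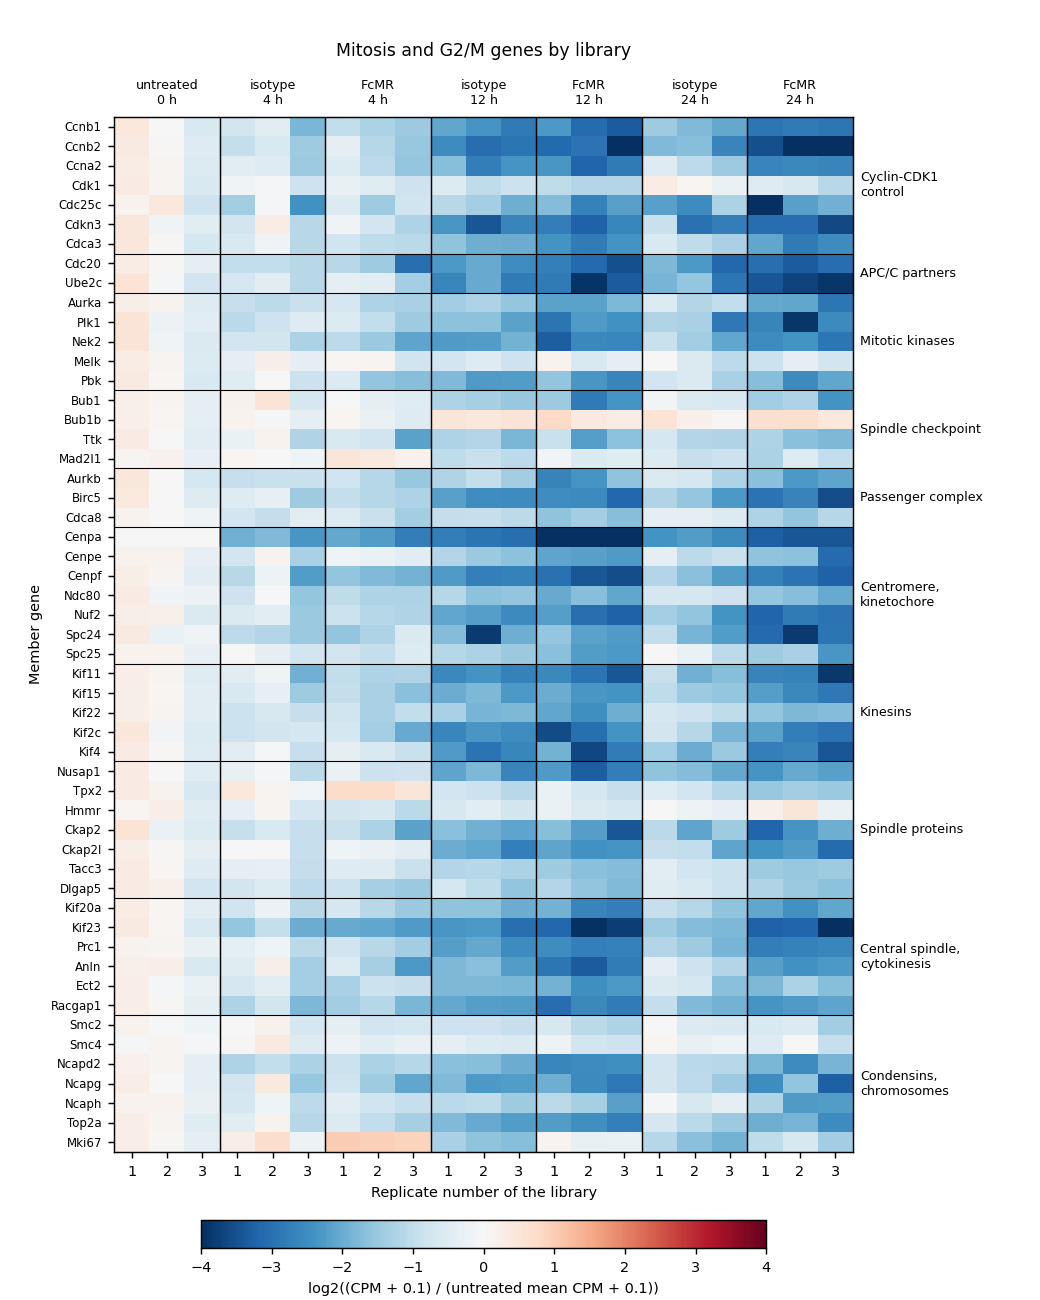
Level of each of the 53 members (down the side, grouped by role) in each of the 21 libraries (across), as log2 of the ratio of CPM to the untreated mean, with 0.1 CPM added to both and the colour scale ending at −4 and 4. Blue deepens from 0 h to 12 h in both arms and is paler in the isotype libraries of 24 h, while Bub1b is at or above 0 from 12 h on.

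The isotype control was first compared with untreated cells, which gives the course of the members without FcMR. A gene was called when edgeR's quasi-likelihood test, with the replicate number in the model, gave a Benjamini-Hochberg adjusted p under 0.05 over all genes tested. At 4 h, 26 members were lower and 0 higher, where 16.9% of all genes were lower and 20.8% higher. At 12 h, 52 were lower and 1 higher, where 20.2% of all genes were lower and 22.5% higher. At 24 h, 42 were lower and 0 higher, where 21.6% of all genes were lower and 21.8% higher. The members' median log2 fold change was −0.68, −1.86 and −1.05, and that of all genes −0.013, 0.034 and −0.037. These 3 comparisons share the untreated libraries. No untreated libraries were made at 4, 12 or 24 h, so the isotype protein and the time in culture cannot be told apart. Most markers of myeloid progenitors, neutrophils, mast cells, basophils and eosinophils were lower by 12 h. Of 7 myeloid progenitor genes, 6, 7 and 7 were lower at 4, 12 and 24 h, and their sum went from 42.5 to 57.8 CPM in untreated cells to 14.2 to 20.6 and 7.86 to 11.2 CPM at 4 and 12 h. Of 6 neutrophil genes, 3, 5 and 5 were lower, with sums of 1069 to 1218, 761 to 1115 and 508 to 590.4 CPM at 0, 4 and 12 h. At 24 h that sum was 1325 to 1433 CPM, and Mmp8 was higher than untreated by 1.76 (adjusted p 1.27e-07 by edgeR, SE 0.15). Of 5 mast cell, basophil and eosinophil genes, 2, 5 and 5 were lower, with sums of 598 to 795, 324 to 416 and 172 to 251 CPM at 0, 4 and 12 h. Dendritic cell genes went both ways at 12 h, with Flt3 (3.43) and Ccr7 (1.06) higher and Cd209a (−8.23) and Zbtb46 (−1.04) lower. Their sum was 301 to 326 CPM in untreated cells and 539 to 613 CPM at 12 h. Ccr7 carried most of it, at means of 249.9 and 519.6 CPM. The part of these cells in the fall of the members was not tested. The 4 h count was 21 without the libraries out of title order, 17 without isotype 4 h replicate 1 and 4 without replicate 1 of every group.

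Cenpa, the histone variant that marks centromeres, had the lowest fitted log2 fold change of the 53 in each of these comparisons. By the ratio of mean CPM alone, Cdkn3 was lower at 12 h, at 13% of untreated against 13.3% for Cenpa. Cenpa stood at 107, 107 and 108 CPM in replicates 1, 2 and 3 of the untreated cells and at 28.1, 31.4 and 21.4 CPM with isotype at 4 h. It was at 15.7, 13.9 and 13.2 CPM at 12 h and at 20.5, 22.9 and 18.2 CPM at 24 h. None of these groups overlapped the untreated libraries. The log2 fold changes were −2.01 (adjusted p 8.93e-09 by edgeR, SE 0.134), −2.91 (adjusted p 1.37e-10 by edgeR, SE 0.137) and −2.39 (adjusted p 1.21e-09 by edgeR, SE 0.135). Per kilobase of transcript, Cenpa had 73.2 CPM in untreated cells, the next members, Top2a, Smc4 and Mki67, had 11.3, 10.9 and 10.3, and the median member had 3.61. Bub1b, a checkpoint protein related to the kinase BUB1, was the 1 member higher than untreated at 12 h, by 0.51 (adjusted p 0.00265 by edgeR, SE 0.119). Cdk1 was lower at 12 h, at −0.74 (adjusted p 0.000671 by edgeR, SE 0.145), and at 24 h its difference from untreated was 0.08 (SE 0.144, adjusted p 0.689).

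FcMR was then compared with the isotype control at each time, the contrast that the design centres on. At 4 h, 5 members were lower and 2 higher, where 9.58% of all genes were lower and 9.29% higher. At 12 h, 8 were lower and 2 higher, where 8.06% of all genes were lower and 8.94% higher. The share of members that was lower at 4 h was close to that of all genes. At 24 h, 39 were lower and 1 higher, where 9.95% of all genes were lower and 11.7% higher. The members' median log2 fold change was −0.29, −0.48 and −1.17, and that of all genes −0.054, −0.020 and 0. By sign alone, 45, 46 and 50 of the 53 were below 0. The groups of 3 libraries did not overlap for 5 members at 4 h, 23 at 12 h and 40 at 24 h, and over all genes tested they did not overlap for 29.7%, 35.4% and 34.4%. FcMR was the lower in all 3 same-numbered pairs of libraries for 18, 35 and 43 members, and for 23.2%, 26.7% and 23.2% of all genes.

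**Figure D2:**
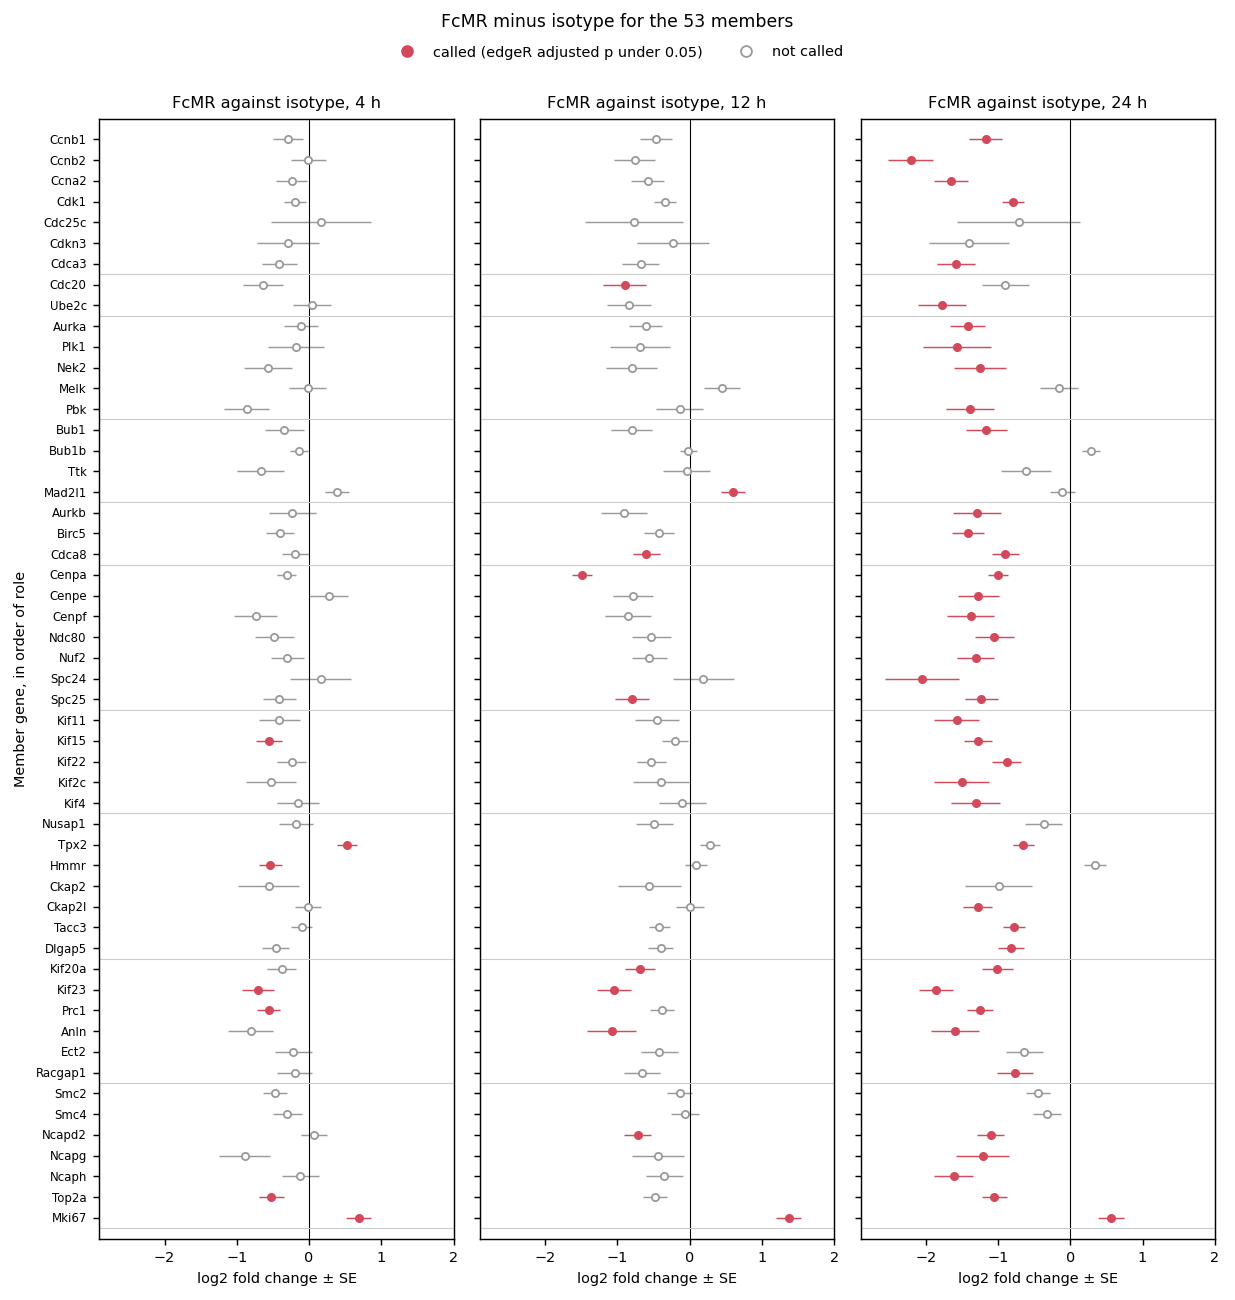
Log2 fold change of FcMR against isotype at 4, 12 and 24 h for each of the 53 members, grouped by role. Points are edgeR estimates with their SE, and red points, 7, 10 and 40 at the 3 times, have an adjusted p under 0.05. Most members lie left of 0 at 24 h, and Mki67 lies right of 0 in each panel.

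The 24 h count of 40 was 35 with no replicate block, 40 without the libraries out of title order and 15 without replicate 1 of every group, and it ran from 33 to 41 when any single library was left out. Of the 40 calls, 13 were made under all 34 alternatives, each of them lower, namely Aurka, Ccna2, Ccnb2, Cdca3, Cenpa, Ckap2l, Kif15, Kif23, Ncapd2, Ncaph, Prc1, Top2a and Ube2c. The counts of the earlier times rested on the setting. At 4 h the count of 7 became 0 with no replicate block, 12 without the libraries out of title order, 1 without isotype 4 h replicate 2, 1 without FcMR 4 h replicate 2 and 2 without FcMR 4 h replicate 3. With library factors from RLE, members lower and higher at 4 h numbered 1 and 2, and over all genes that scaling changed the split from 1290 lower and 1251 higher to 874 and 1506. At 12 h the count of 10 became 6 with no replicate block, 6 without the libraries out of title order, 20 with GC correction, 6 without FcMR 12 h replicate 1 and 6, 4 and 5 without isotype 12 h replicates 1, 2 and 3.

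Among the genes of cyclin and CDK1 control, 5 of 7 were lower with FcMR at 24 h, and 0 of 7 were called at 4 or 12 h. Ccnb1, the main mitotic cyclin, was at 28.7, 21.6 and 13.9 CPM in untreated cells. At 24 h it was at 7.85, 6.22 and 5.15 CPM with isotype and at 2.78, 2.9 and 2.8 CPM with FcMR, each FcMR library below each isotype library. The change was −1.17 (adjusted p 0.00143 by edgeR, SE 0.23). Ccnb2, the other B-type cyclin, had the largest change of the 53 at 24 h, −2.21 (adjusted p 6.9e-05 by edgeR, SE 0.311), or 4.63-fold lower, and Ccna2, an A-type cyclin, changed by −1.65 (SE 0.235). Cdk1 itself was at 27.2, 23.4 and 18.2 CPM with isotype and at 15.2, 14.1 and 10.2 CPM with FcMR, a change of −0.79 (adjusted p 0.000907 by edgeR, SE 0.148). The value for the kinase was smaller than those for its cyclins, and that difference between genes was not tested. Cdca3, which promotes entry into mitosis, changed by −1.58 (SE 0.262). The phosphatases of the group were not called: Cdkn3, which acts on CDKs, had −1.40 (SE 0.554, adjusted p 0.0875), and Cdc25c, which activates CDK1, had −0.71 (SE 0.851, adjusted p 0.621) on 0 to 50 counts per library.

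**Figure D3:**
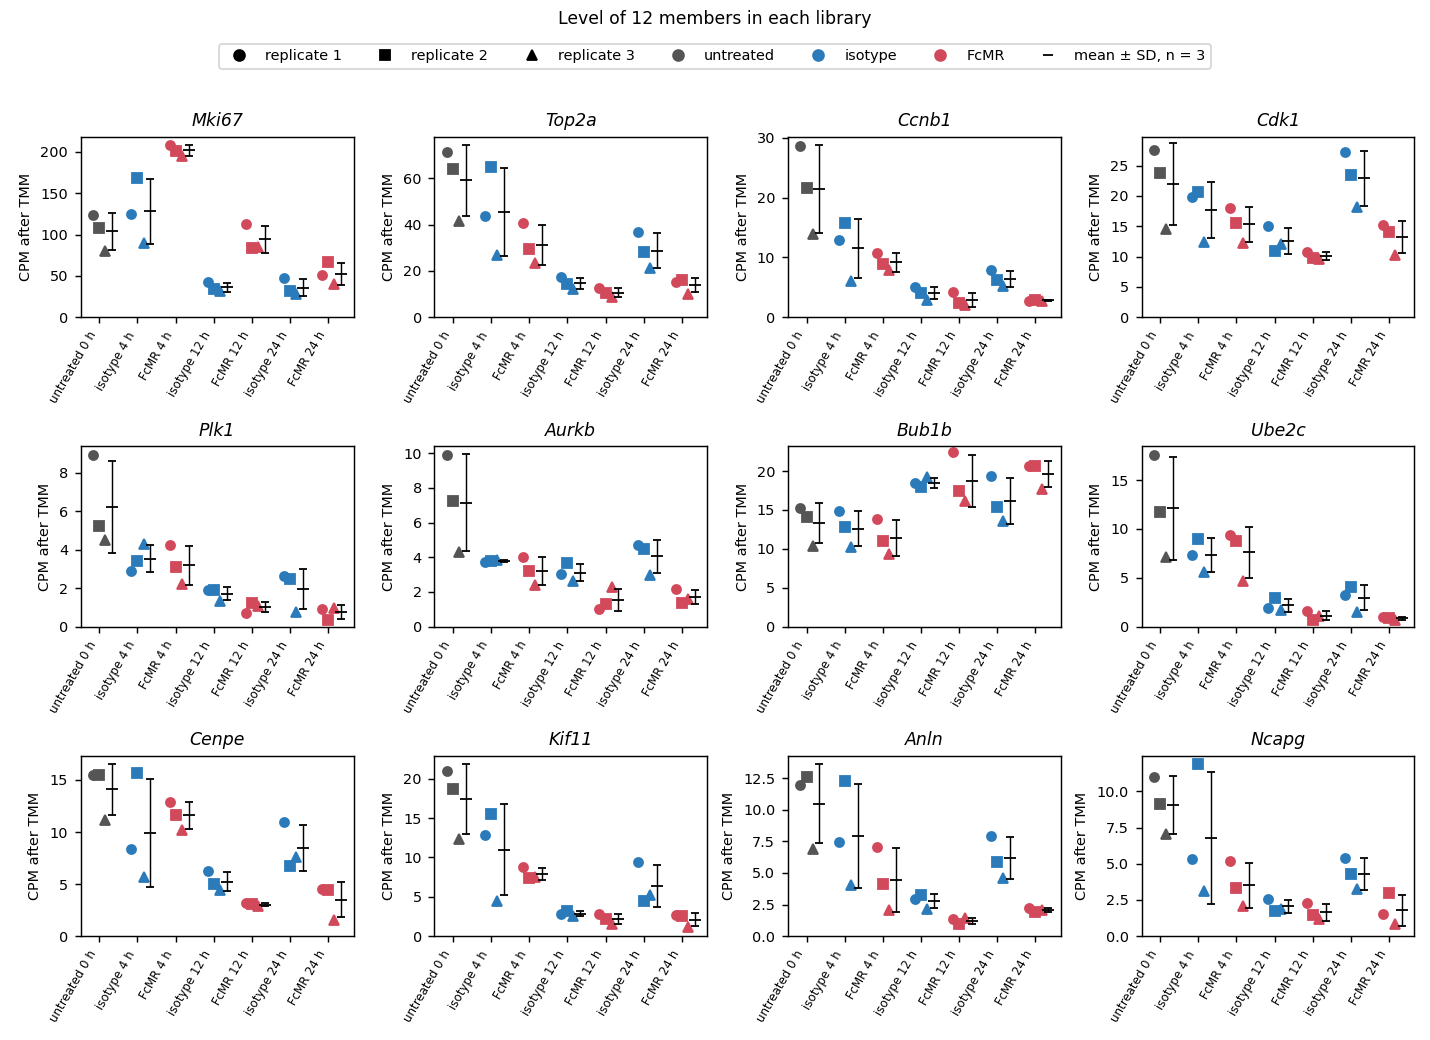
CPM after TMM scaling of 12 members in each library, by group, with symbols for the replicate number and bars for mean ± SD (n = 3). In most panels the 3 FcMR libraries of 24 h sit below the 3 isotype libraries of 24 h. Mki67 and Bub1b do not follow that pattern, and for Plk1 isotype replicate 3 lies within the FcMR range.

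The 2 partners of the anaphase-promoting complex passed the threshold at different times, 1 at 12 h and 1 at 24 h. Their 12 h values were close, and a difference in timing between them was not tested. Ube2c, its ubiquitin-conjugating enzyme, was at 17.6, 11.7 and 7.11 CPM in untreated cells. At 24 h it was at 3.24, 4.07 and 1.54 CPM with isotype and at 1.03, 0.845 and 0.731 CPM with FcMR, with no overlap. The change was −1.78 (adjusted p 0.000946 by edgeR, SE 0.334), after −0.84 (SE 0.301, adjusted p 0.072) at 12 h and 0.04 (SE 0.263, adjusted p 0.95) at 4 h. Cdc20, which activates the complex, was lower at 12 h, at −0.90 (adjusted p 0.0484 by edgeR, SE 0.295), and at 24 h had −0.90 (SE 0.325, adjusted p 0.0612).

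Of the 5 mitotic kinases, 4 were lower with FcMR at 24 h and 0 were called at 4 or 12 h. Plk1, which acts from centrosome maturation to cytokinesis, was at 2.65, 2.47 and 0.772 CPM with isotype and at 0.925, 0.331 and 0.975 CPM with FcMR. Isotype replicate 3 lay within the FcMR range, so the groups overlapped, and the change was −1.57 (adjusted p 0.0254 by edgeR, SE 0.473). Aurka, the spindle pole kinase, changed by −1.42 (SE 0.245), Pbk by −1.39 (SE 0.331) and Nek2, which parts the centrosomes, by −1.25 (SE 0.361). Melk had −0.16 (SE 0.263, adjusted p 0.74) at 24 h.

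The spindle checkpoint gave 1 call among 4 genes at 24 h. Bub1, a checkpoint kinase at the kinetochore, was lower with FcMR, at −1.16 (adjusted p 0.00626 by edgeR, SE 0.279). Bub1b was at 19.4, 15.4 and 13.6 CPM with isotype and at 20.6, 20.7 and 17.7 CPM with FcMR, ranges that overlap, and its difference was 0.29 (SE 0.121, adjusted p 0.103). Across the 21 libraries Bub1b was the 1 member whose log2 CPM ran against the mean of the others (Pearson r = −0.53), a description over libraries that share groups. Ttk, the kinase that starts checkpoint signalling, had −0.61 (SE 0.347, adjusted p 0.252). Mad2l1, which encodes the checkpoint inhibitor MAD2, had −0.11 (SE 0.174, adjusted p 0.731) at 24 h. At 12 h Mad2l1 was higher with FcMR, at 18.2, 13.2 and 14.2 CPM against 9.7, 10.7 and 9.63 CPM with isotype, a difference of 0.60 (adjusted p 0.02 by edgeR, SE 0.167) that was called under 26 of 34 alternatives.

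The chromosomal passenger complex corrects faulty attachments, and all 3 of its genes among the 53 were lower with FcMR at 24 h. Aurkb, its kinase, was at 4.71, 4.5 and 2.96 CPM with isotype and at 2.16, 1.36 and 1.58 CPM with FcMR, without overlap, a change of −1.29 (adjusted p 0.00982 by edgeR, SE 0.331). Birc5, which encodes survivin, changed by −1.42 (SE 0.223) and Cdca8, which encodes borealin, by −0.90 (SE 0.185). Cdca8 was also lower at 12 h, at −0.60 (adjusted p 0.0347 by edgeR, SE 0.183). Incenp, a further gene of the complex outside the 53, had overlapping ranges at 24 h. It was at 37.4, 33.6 and 37.7 CPM with isotype and at 28.2, 24.0 and 35.8 CPM with FcMR.

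All 7 centromere and kinetochore genes among the 53 were lower with FcMR at 24 h, each with no overlap between the groups. They include the 4 genes of the NDC80 complex, which holds microtubules at the kinetochore. Of these, Ndc80 changed by −1.05 (SE 0.273), Nuf2 by −1.31 (SE 0.259), Spc24 by −2.05 (SE 0.514) and Spc25 by −1.23 (SE 0.233). Spc24 rests on 1 to 61 counts per library. Cenpe, a kinesin of the kinetochore, was at 11, 6.75 and 7.59 CPM with isotype and at 4.52, 4.41 and 1.58 CPM with FcMR, a change of −1.27 (adjusted p 0.00356 by edgeR, SE 0.283). Cenpf changed by −1.38 (SE 0.32). Cenpa had the largest change of the 53 at 12 h, with 5.65, 4.45 and 5.05 CPM with FcMR against 15.7, 13.9 and 13.2 CPM with isotype. That change was −1.49 (adjusted p 1.86e-06 by edgeR, SE 0.143), or 2.81-fold lower, was called under 34 of 34 alternatives, and at 24 h was −1.0 (SE 0.139).

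All 5 members grouped as spindle and chromosome kinesins were lower with FcMR at 24 h, again with no overlap. Kif11, which pushes the spindle poles apart, was at 9.42, 4.5 and 5.28 CPM with isotype and at 2.67, 2.57 and 1.1 CPM with FcMR, a change of −1.57 (adjusted p 0.00152 by edgeR, SE 0.313). Kif2c, a microtubule depolymerase, changed by −1.50 (SE 0.381), Kif4, a motor on chromosome arms, by −1.31 (SE 0.34), Kif15 by −1.28 (SE 0.195) and Kif22 by −0.88 (SE 0.204). Of the 5, Kif15 was called at 4 h, at −0.55 (adjusted p 0.0453 by edgeR, SE 0.18), and 0 were called at 12 h.

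Of the spindle-associated proteins, 4 of 7 were lower at 24 h. Ckap2l changed by −1.28 (SE 0.203), Dlgap5 by −0.82 (SE 0.182), Tacc3 by −0.78 (SE 0.15) and Tpx2, the activator of Aurora A, by −0.65 (adjusted p 0.00435 by edgeR, SE 0.149). At 4 h Tpx2 had been higher with FcMR, at 40.9, 41.5 and 34.7 CPM against 32.9, 26.5 and 22.8 CPM with isotype, a difference of 0.52 (adjusted p 0.0161 by edgeR, SE 0.139) called under 27 of 34 alternatives. Hmmr, a spindle protein that also binds hyaluronan, was lower at 4 h, at −0.54 (adjusted p 0.0268 by edgeR, SE 0.159). At 24 h Hmmr was at 15.6, 18.7 and 11.1 CPM with FcMR and 13.2, 11.6 and 10.7 CPM with isotype, overlapping ranges, with 0.34 (SE 0.151, adjusted p 0.132). Nusap1 had −0.37 (SE 0.257, adjusted p 0.357) and Ckap2 −0.99 (SE 0.466, adjusted p 0.156) at 24 h.

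Central spindle and cytokinesis genes were lower in 5 of 6 at 24 h, and they hold the 1 member called lower at all 3 times. That member, Kif23, a motor of the centralspindlin complex, changed by −0.70 (adjusted p 0.0393 by edgeR, SE 0.222) at 4 h, −1.05 (adjusted p 0.00468 by edgeR, SE 0.234) at 12 h and −1.86 (adjusted p 2.7e-05 by edgeR, SE 0.238) at 24 h. The 4 h call was made under 13 of 34 alternatives and the 24 h call under 34. Anln, which encodes the furrow scaffold anillin, was at 7.95, 5.9 and 4.63 CPM with isotype at 24 h and at 2.26, 1.87 and 2.07 CPM with FcMR, with no overlap. Its change was −1.08 (adjusted p 0.0399 by edgeR, SE 0.341) at 12 h and −1.59 (adjusted p 0.00237 by edgeR, SE 0.334) at 24 h. Prc1, which bundles the microtubules of the central spindle, changed at 24 h by −1.25 (SE 0.175), Kif20a by −1.01 (SE 0.214) and Racgap1, the partner of KIF23, by −0.76 (SE 0.247). Ect2, which activates RhoA at the furrow, had −0.64 (SE 0.256, adjusted p 0.0935).

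Of the condensin genes, the non-SMC subunits of condensin I were lower with FcMR at 24 h, Ncaph at −1.61 (SE 0.269), Ncapg at −1.21 (SE 0.367) and Ncapd2 at −1.10 (SE 0.185). Ncapg was at 5.4, 4.29 and 3.22 CPM with isotype and at 1.54, 2.98 and 0.853 CPM with FcMR, with no overlap. The SMC subunits, which condensins I and II share, were not called, Smc2 at −0.45 (SE 0.169, adjusted p 0.0738) and Smc4 at −0.32 (SE 0.196, adjusted p 0.291). Whether the subunits differ from each other was not tested. Top2a, the topoisomerase that untangles sister chromatids, was at 71.5, 64.2 and 41.8 CPM in untreated cells. At 24 h it was at 36.8, 28.2 and 21.5 CPM with isotype and 15.1, 16.2 and 10.2 CPM with FcMR, without overlap, a change of −1.05 (adjusted p 0.000315 by edgeR, SE 0.173).

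Mki67, which encodes the chromosome surface protein Ki-67, a common stain for cycling cells, was called higher with FcMR at each time. It was at 124, 108 and 80.0 CPM in untreated cells. At 4 h it stood at 209, 201 and 195 CPM with FcMR and at 125, 168 and 89.8 CPM with isotype, and the FcMR libraries were all above the isotype libraries. At 12 h it stood at 113, 84.1 and 85.6 CPM with FcMR and at 42.6, 34.3 and 32.1 CPM with isotype, again without overlap. At 24 h it was at 51.7, 66.6 and 39.9 CPM with FcMR and at 47.2, 32.4 and 27.7 CPM with isotype, where the ranges overlapped. The differences were 0.69 (adjusted p 0.0111 by edgeR, SE 0.174), 1.37 (adjusted p 4.13e-05 by edgeR, SE 0.177) and 0.57 (adjusted p 0.0319 by edgeR, SE 0.18), and they were called under 27, 34 and 26 of 34 alternatives. The 4 h call was lost without replicate 3 of every group, among others, with an edgeR adjusted p of 0.183.

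The members with the lowest values at 4 h were Ncapg at −0.89 (SE 0.351, adjusted p 0.0924), Pbk at −0.86 (SE 0.31, adjusted p 0.0649) and Anln at −0.81 (SE 0.314, adjusted p 0.0868) and were not called. The other members lower at 4 h were Prc1, at −0.56 (adjusted p 0.0223 by edgeR, SE 0.159), and Top2a, at −0.52 (adjusted p 0.0415 by edgeR, SE 0.168). At 12 h, Spc25 was lower, at −0.80 (adjusted p 0.028 by edgeR, SE 0.236), as were Ncapd2, at −0.72 (adjusted p 0.0128 by edgeR, SE 0.185), and Kif20a, at −0.69 (adjusted p 0.0324 by edgeR, SE 0.208). Mad2l1 had 0.39 (SE 0.168, adjusted p 0.121) at 4 h and Melk 0.45 (SE 0.247, adjusted p 0.261) at 12 h.

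The course between 12 and 24 h was compared within each arm. With isotype, 24 members rose and 0 fell, where 7.69% of all genes were higher and 10.4% lower at 24 h. Cdk1 rose by 0.82 (SE 0.146), Top2a by 0.94 (SE 0.17), Ccna2 by 1.20 (SE 0.221) and Kif2c by 1.33 (SE 0.366), and all 5 kinesins were called. With FcMR, 2 members rose and 4 fell, where 11.4% of all genes were higher and 14% lower. Those that rose were Cenpa, by 1.0 (SE 0.146), and Hmmr, by 0.66 (SE 0.149). Those that fell were Tpx2 (−0.84), Mki67 (−0.84), Spc24 (−1.65) and Mad2l1 (−0.50). The members' median change was 0.67 with isotype and 0.05 with FcMR. The isotype count was 8 without isotype 12 h replicate 1, 10 without isotype 12 h replicate 2, 10 without isotype 24 h replicate 1, 13 without isotype 24 h replicate 3 and 0 without replicate 1 of every group. The isotype libraries of 24 h enter both this comparison and that of FcMR with isotype at 24 h.

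Whether the FcMR effect differed between times was tested in the same fit. A joint test over 4, 12 and 24 h called 13 members, where 12.0% of all genes were called. It called 4 members with no replicate block, 25 with GC correction, 4 without isotype 4 h replicate 1, 4 without isotype 24 h replicate 1 and 0 without replicate 1 of every group. The effect at 12 h minus that at 4 h was lower for 1 member, Cenpa, at −1.18 (adjusted p 0.00258 by edgeR, SE 0.195), where 3.04% of all genes were lower. The effect at 24 h minus that at 12 h was lower for 2 members, where 0.839% of all genes were lower. They were Ckap2l, at −1.29 (adjusted p 0.0225 by edgeR, SE 0.282), and Tpx2, at −0.94 (adjusted p 0.0229 by edgeR, SE 0.205). By value alone, 48 of the 53 members had a more negative change at 24 h than at 12 h, and for the members not named here that difference did not pass the test.

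The level of the members also followed the replicate number given in the titles. That was known from an earlier report of these data, so the values below describe it and are not independent evidence of it. In 7 of 7 groups replicate 3 had the lowest mean log2 CPM of the members, and in 6 groups replicate 1 had the highest. The number held 51.1% of the variance within groups at the median member and 18.2% at the median of all genes tested. The largest shares were those of Top2a (75.8%), Birc5 (75.1%) and Dlgap5 (75.1%), and the smallest those of Aurkb (14.2%), Cdca8 (12.1%) and Cdc25c (2.42%). The edgeR test of the number called 0 members after adjustment, where 0.0149% of all genes were called, and 36 members had an unadjusted p under 0.05, as did 9.46% of all genes. DESeq2 called 16 members and 0.910% of the genes it adjusted, limma voom 1 member and 0.0743% of all genes, and the edgeR fit with GC correction 8 members and 0.631% of all genes. The contrast of replicate 3 with replicate 1 called 7 members lower, where 0.156% of all genes were lower. They were Top2a (−0.66), Dlgap5 (−0.65), Cdk1 (−0.53), Ckap2l (−0.67), Ccnb1 (−0.76), Tpx2 (−0.49) and Birc5 (−0.70). Pairs of members correlated at a median r of 0.84 over the 21 libraries, 0.58 with group means removed and 0.29 with the number removed too, a description of libraries that share group and depth.

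**Figure D4:**
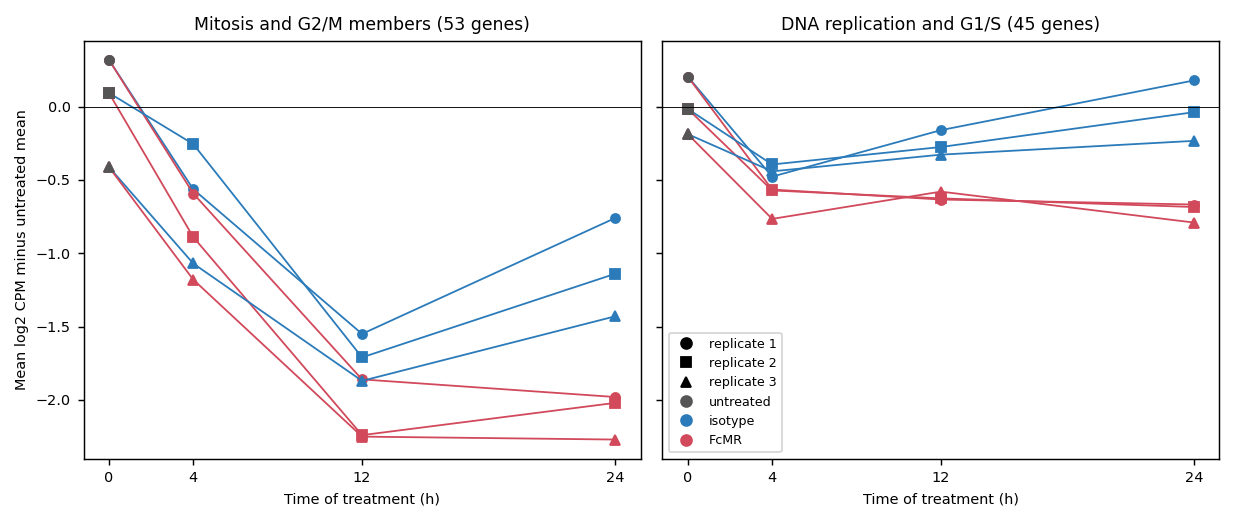
Mean log2 CPM minus the untreated mean for the 53 members (left) and for the genes of DNA replication and G1/S (right) in each library against time, with symbols for the replicate number. At 24 h the isotype libraries stand at −0.76, −1.14 and −1.43 and the FcMR libraries at −1.98, −2.02 and −2.27 on the left, and at 0.18, −0.04 and −0.23 and −0.67, −0.69 and −0.79 on the right.

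Other parts of the cell cycle programme were read from lists of genes outside the 53. Beside their counts for FcMR against isotype at 24 h, 9.95% of all genes were lower and 11.7% higher. Of 54 other mitosis genes tested, 22 were lower and 3 higher with FcMR at 24 h, with a median of −0.81. Depdc1a (−2.70), Kif14 (−2.05) and Aspm (−1.92), which focuses spindle poles, were among the lower, and Trip13, an ATPase that takes checkpoint complexes apart, was higher by 2.30 (SE 0.156). Of 45 genes of DNA replication and G1/S, 24 were lower and 1 higher, with a median of −0.59. Clspn, a replication checkpoint adaptor, changed by −2.25, Cdc6, an origin licensing factor, by −2.19 and Mcm10 by −1.63. With isotype against untreated at 24 h, 6 of the replication genes were lower and 5 higher, with a median of −0.02. Of all genes, 21.6% were lower and 21.8% higher in that comparison. The mitosis members had 42 lower, 0 higher and a median of −1.05. The difference between the lists was not tested.

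Of 19 genes of the DREAM, MuvB and FoxM1 regulators, 5 were lower and 1 higher with FcMR at 24 h, with a median of −0.08. Of all genes, 9.95% were lower and 11.7% higher. The lower ones were E2f2 (−2.62), E2f7 (−1.76), Mybl2 (−1.66), Foxm1 (−1.33) and E2f8 (−1.05), and the higher one was E2f5 (0.74). Foxm1, an activator of late cell cycle genes, was at 4.9, 3.0 and 3.22 CPM with isotype and at 1.54, 1.58 and 1.22 CPM with FcMR, with no overlap, and its edgeR adjusted p was 0.00048. Mybl2, which encodes B-Myb, was at 2.75, 2.68 and 2.7 CPM with isotype and at 0.822, 0.845 and 0.853 CPM with FcMR, also with no overlap (edgeR adjusted p 0.00123). At 12 h Foxm1 was lower, at −0.93 (adjusted p 0.00821 by edgeR, SE 0.226) and Mybl2 had 0.45 (SE 0.27, adjusted p 0.325).

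Of 25 genes that brake or start the CDKs, 7 were lower and 4 higher with FcMR at 24 h, with a median of −0.26. Of all genes, 9.95% were lower and 11.7% higher. Ccnd1, a D-type cyclin that starts the cycle, was at 45.3, 44.2 and 30.9 CPM with isotype and at 8.53, 7.61 and 6.58 CPM with FcMR, a change of −2.40 (adjusted p 3.47e-08 by edgeR, SE 0.167). Ccnd2, another D-type cyclin, was higher with FcMR at 4, 12 and 24 h, by 1.60 (SE 0.0992), 2.06 (SE 0.101) and 1.64 (SE 0.103). Myc, a driver of growth, was lower at 12 h, at −1.76 (SE 0.271), and at 24 h, at −1.92 (SE 0.287), and had −0.60 (SE 0.262, adjusted p 0.128) at 4 h. Cdkn1a, which encodes the CDK inhibitor p21, was at 1481, 1709.6 and 1492 CPM with FcMR at 4 h and at 762, 626 and 923 CPM with isotype, higher by 1.02 (adjusted p 2.16e-05 by edgeR, SE 0.119). It had 0.21 (SE 0.118, adjusted p 0.276) at 12 h and −0.26 (SE 0.118, adjusted p 0.133) at 24 h.

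Markers of other cells were read beside these results, since marrow cultures hold dividing precursors. The counts below for FcMR against isotype at 24 h stand beside 9.95% of all genes lower and 11.7% higher. The 9 macrophage genes summed to 40236 to 44894 CPM with isotype at 24 h and to 32755 to 34772 CPM with FcMR. Lyz2 carried most of both sums, at means of 28184 CPM with isotype and 21707 CPM with FcMR. With FcMR 5 were lower (Itgam, Itgax, Lyz2, Fcgr1 and Ctss) and 1 was higher. The higher one was Adgre1, at means of 837 CPM with isotype and 1507 CPM with FcMR. The 7 myeloid progenitor genes summed to 42.5 to 57.8 CPM in untreated cells, to 10.8 to 13.9 CPM with isotype at 24 h and to 17.7 to 24.0 CPM with FcMR. Kit, at 15.2, 21.1 and 16.9 CPM with FcMR and 6.87, 10.9 and 7.59 CPM with isotype, was the 1 of the 7 that was called, at 1.08 (adjusted p 0.000849 by edgeR, SE 0.199), and it carried the difference in the sum. Without Kit the other 6 summed to 3.0 to 3.92 CPM with isotype and to 2.32 to 2.87 CPM with FcMR, the opposite order. Mean levels at 24 h with isotype and FcMR were 0.247 and 0.0343 CPM for Mpo and 0.0327 and 0 CPM for Elane, which encode granule proteins of neutrophil precursors. The 6 neutrophil genes summed to 1069 to 1218 CPM in untreated cells, to 1325 to 1433 CPM with isotype at 24 h and to 544 to 689 CPM with FcMR. With FcMR 3 of them were lower and 1 higher. Mmp8 carried most of the 24 h sums, at means of 369.8, 1248 and 451 CPM in untreated, isotype and FcMR cells. The other genes had 24 h means below untreated in both arms. In the same order the means were 408, 85.4 and 137 CPM for S100a8, which was called higher with FcMR, and 264, 26.0 and 13.8 CPM for Ngp. Ltf had 81.0, 12.2 and 2.5 CPM, Camp 18.8, 2.09 and 2.99 CPM and Ly6g 6.84, 0.242 and 0.156 CPM. The 5 mast cell, basophil and eosinophil genes summed to 598 to 795 CPM in untreated cells and, at 24 h, to 63.8 to 101 CPM with isotype and 62.3 to 95.7 CPM with FcMR, with 0 of 5 called between the arms. Dendritic cell genes, with 0 of 4 lower and 2 higher, summed to 410 to 473 and 701 to 755 CPM with isotype and FcMR. Ccr7 carried most of these sums, at means of 395 and 672 CPM in the same order. The other gene called higher was Zbtb46, at 17.7 and 28.5 CPM, and Flt3, at 26.5 and 28.2 CPM, was not called. Lymphocyte genes summed to 1.54 to 2.47 and 1.95 to 2.19 CPM, erythroid and megakaryocyte genes to 0.981 to 1.54 and 0.698 to 2.57 CPM, and the 3 fibroblast genes to 0.322 to 1.08 and 4.34 to 7.44 CPM. In the last list Pdgfrb, a growth factor receptor, was higher with FcMR, at means of 5.17 and 0.187 CPM with FcMR and isotype, by 4.72 (adjusted p 1.24e-06 by edgeR, SE 0.451), while Col1a1 had 0.16 (SE 0.636, adjusted p 0.907) and Col3a1 was at 0 in all 3 isotype libraries and 2 of the 3 FcMR libraries. The part of these cells in the change of the members was not tested.

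Outside the 53 and over the 21 libraries, the genes whose log2 CPM was most like the members' mean were Stmn1 (Pearson r = 0.976), Spag5 (0.974), Pclaf (0.974), Shcbp1 (0.969) and Il18rap (0.966). Of the members themselves, 43 had an r above 0.8 with the mean of the others, and the lowest after Bub1b were Hmmr (0.2) and Mki67 (0.47). These values describe libraries that share groups and replicate numbers. Members with TTTGAA in the promoter window were called lower at 24 h in 24 of 33 and members without it in 8 of 11, at medians of −1.21 and −1.17. Hmmr and Mki67, shown above with TTTGAA, were not lower, while Ccnb1, shown without it, was. Other forms of the cell cycle genes homology region were not searched for, so a promoter without TTTGAA may still hold that element.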

How the data were processed

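RNA of 21 libraries was read as a table of counts per gene, which the authors deposited with a normalized table, a signal that is each count divided by a factor of its gene and library. The deposited counts are whole numbers. The submitters' processing notes name kallisto 0.44.0, DESeq2, CASAVA 1.8.2 and the builds mm10 and GRCm38, without roles, so these may be estimated counts that the authors rounded. No column lacked a sample (0 columns).

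Samples were grouped by their titles. Counts were tested with edgeR 4.0.16 in R 4.3.3: filterByExpr by group (minimum count 10), TMM, a quasi-likelihood fit of 7 groups and the replicate number over all 21 libraries (12 residual degrees of freedom), and Benjamini-Hochberg adjustment over 13468 genes at 0.05. The number was kept in the model because the choice of members asked for it, as proliferation had followed it in an earlier report of these data. No label says what it stands for. Log2 CPM used a prior count of 2. Alternatives used DESeq2 1.42.0, limma 3.58.1 voom, other factors and filters, a GC correction, no block, and libraries left out. A count of 3 was taken as the floor.

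The members, the other gene lists, the tests and the rule for genes named with values were chosen with earlier results of these data known. That rule gave values in each library for 12 members covering the roles and fold changes for the members, and other members were shown by library where a result turned on them. From the other lists it named genes called at 24 h with large changes, and always Foxm1, Mybl2, Cdkn1a and Myc. Promoter windows came from the RefSeq table of GRCm38.p6.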

Additional observations from a re-analysis of the deposited data

Results flagged for a closer look

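The effect of FcMR differed between 4, 12 and 24 h, by edgeR's joint test in 1 fit, for 13 of the 53 members, where 12.0% of all genes were called. The 4 with the smallest p were Cenpa (adjusted p 0.00265), Tpx2 (adjusted p 0.00287), Ccnb2 (adjusted p 0.00514) and Ckap2l (adjusted p 0.00722). For Cenpa the log2 fold changes at the 3 times were −0.31, −1.49 and −1.0, and for Tpx2 they were 0.52, 0.28 and −0.65. For Ccnb2 they were −0.01, −0.76 and −2.21, and for Ckap2l −0.01, 0.01 and −1.28. The joint test called 4 members with no replicate block and 0 without replicate 1 of every group.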

How the results depend on the processing

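The 34 alternatives to the fit each changed 1 choice, among them other library factors, filters and tools and 24 that left out a library or a replicate number. For FcMR against isotype at the 3 times, where single members were compared across alternatives, none turned the direction of a called member. Over 5392 values of single members in those 3 comparisons, 304 lost a call and 67 gained one. With a library or a replicate number left out, the members called ranged over 0 to 9 for FcMR against isotype at 4 h, 2 to 14 at 12 h and 15 to 41 at 24 h, over 4 to 31, 46 to 53 and 30 to 43 for isotype against untreated at 4, 12 and 24 h, over 0 to 32 for isotype between 12 and 24 h, 3 to 7 for FcMR between 12 and 24 h, 0 to 17 for the joint test and 0 to 2 for the replicate number. For FcMR at 4 h, where 7 were called, the count was 3 with RLE factors, 3 with the authors' factors, 3 with DESeq2, 2 with no filter, 12 without the libraries out of title order and 0 with a fit of only the libraries compared. At 12 h, where 10 were called, it was 5 with no filter, 20 with GC correction in the fit with the replicate block, 6 without the libraries out of title order and 2 with only the libraries compared. A fit of only the libraries compared gave 9 for isotype against untreated at 4 h, against 26, and 0 for FcMR between 12 and 24 h, against 6. It has fewer libraries to estimate the spread. GC correction gave 25 in the joint test, against 13. For the replicate number, DESeq2 gave 16, limma voom 1 and GC correction 8, against 0. Libraries also differed in GC tilt, the mean log2 CPM deviation of the genes richest in GC minus that of the poorest. In replicates 1, 2 and 3 it was −0.84, −1.62 and 0.636 for isotype 4 h and −0.743, 0.74 and 0.824 for FcMR 12 h. For FcMR 24 h it was −0.377, −1.33 and 0.412, and in the other groups its sign did not differ between replicates. The cause of the changes in these counts was not tested.

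The fit with no replicate block called 0, 6 and 35 members for FcMR against isotype at 4, 12 and 24 h, 18, 51 and 37 for isotype against untreated, 17 and 5 between 12 and 24 h with isotype and with FcMR, and 4 in the joint test. Same-numbered libraries of FcMR and isotype deviated together with mean correlations of −0.071, 0.106 and 0.014 over all genes at 4, 12 and 24 h. Over the members the means were −0.212, 0.113 and −0.013, and not every pair exceeded 0.1. By these correlations no pairing was shown. The mean level of the members still followed the number, lowest in replicate 3 in 7 of 7 groups. No scaling moved the median of all genes by over 0.1 on the log2 scale. Depth limits the sparse members: Cdc25c had at most 3 counts in 6 libraries and Spc24 in 3.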
